A study of Mus musculus with 12 samples.

Results

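The 9 genes described here encode transcription factors used to build motor neurons: Mnx1, Isl1, Isl2, Lhx3, Lhx4, Foxp1, Onecut1, Onecut2 and Etv1. They were chosen by name, as the entries for those symbols among the 21030 genes of the deposited table, and all 9 were found. The cells came from spinal cords of wild-type C57BL/6 mouse embryos at E12, were dissociated with trypsin, and grew for 48 h in Neurobasal medium with B27 on 1 of 4 coats. Poly-D-lysine (PDL), a positively charged polymer that holds cells to plastic, was under every coat. The groups were laminin plus myelin, myelin alone, laminin alone and PDL with nothing added, with 3 libraries each, numbered 1 to 3 in every coat, so that 12 libraries were measured. Laminin is an extracellular matrix protein on which neurites grow, and the myelin coat was a membrane preparation from wild-type animals. The study also collected myelin-coated wells without cells, which are not analysed here. The cultures were neither sorted nor enriched for motor neurons, so each value is an average over all cells of a well. In such mixed samples fewer cells of a type and less RNA per cell cannot be told apart.

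Spinal motor neurons arise from progenitors that express Olig2. On leaving the cell cycle they switch on Mnx1, Isl1, Isl2 and, early on, Lhx3 and Lhx4. Isl1 and Lhx3 are LIM homeodomain proteins that assemble with the adaptor Ldb1 into a complex that turns on motor neuron genes, whereas Lhx3 with Ldb1 but without Isl1 drives V2a interneuron genes. Foxp1 works with Hox proteins to set the motor columns of the limb levels, the Onecut factors act upstream of Isl1, and Etv1 (ER81) marks motor pools and proprioceptive sensory neurons. Several of the 9 genes are not restricted to motor neurons in the embryonic spinal cord: Isl1 is also found in dorsal interneurons, Lhx3 and Lhx4 in V2 interneurons, and Foxp1 and the Onecut factors in several interneuron classes.

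Isl1, Lhx3 and Etv1 were, of the 8 members that could be tested, those with the largest called difference between libraries of number 3 and number 1. For each, 250 bases before a start site are given so that the loci can be seen beside the values. The sequences are from RefSeq on GRCm38.p6, read 5′ to 3′ on the strand of the gene, with CG dinucleotides in capitals.
Isl1, chr13:116309689-116309938, minus strand: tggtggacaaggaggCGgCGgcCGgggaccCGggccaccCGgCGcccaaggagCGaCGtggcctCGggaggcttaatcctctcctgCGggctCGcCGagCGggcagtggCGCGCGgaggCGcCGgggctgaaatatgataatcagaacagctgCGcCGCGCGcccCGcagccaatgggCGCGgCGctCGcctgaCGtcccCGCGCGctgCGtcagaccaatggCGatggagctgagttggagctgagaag
Lhx3, chr2:26208250-26208499, minus strand: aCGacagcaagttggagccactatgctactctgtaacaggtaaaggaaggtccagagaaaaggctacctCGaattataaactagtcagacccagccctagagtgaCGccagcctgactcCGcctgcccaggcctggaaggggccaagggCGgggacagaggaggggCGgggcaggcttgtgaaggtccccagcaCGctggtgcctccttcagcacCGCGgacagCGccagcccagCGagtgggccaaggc
Etv1, chr12:38779832-38780081, plus strand: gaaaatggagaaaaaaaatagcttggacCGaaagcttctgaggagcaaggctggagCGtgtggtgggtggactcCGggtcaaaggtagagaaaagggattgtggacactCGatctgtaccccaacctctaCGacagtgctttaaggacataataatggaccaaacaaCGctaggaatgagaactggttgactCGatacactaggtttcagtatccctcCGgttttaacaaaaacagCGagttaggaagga
The Isl1 window held 33 CG dinucleotides at 71.2% G or C, more CG than 96.0% of the 32851 promoter windows of this length. The Lhx3 window held 11 at 62% and the Etv1 window 9 at 46.4%, against medians of 6 CG and 52.4% over all windows. Neither ATCAAT, the core of Onecut sites, nor TAATTA, a core shared by many homeodomain proteins, occurs on either strand of these windows. RefSeq also gives a second start site for Lhx3 and for Etv1. The second Lhx3 window, chr2:26206576-26206825, held 22 CG at 70.8% G or C and neither motif, and the second Etv1 window, chr12:38783461-38783710, held 1 CG at 44.4% and the first motif once. ATCAAT is in 6.72% and TAATTA in 4.84% of all such windows.

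In GRCm38 coordinates with GENCODE M21 gene models, Mnx1 lies at chr5:29473034-29478470, Isl1 at chr13:116298281-116309689, Lhx3 at chr2:26200212-26208289, Lhx4 at chr1:155698031-155751684 and Foxp1 at chr6:98925338-99522721, all on the minus strand. Isl2 at chr9:55538672-55546180, Onecut1 at chr9:74861921-74891781, Onecut2 at chr18:64340020-64400987 and Etv1 at chr12:38779380-38870484 lie on the plus strand. Antisense genes overlap the spans of Lhx3 (Gm27196) and Isl2 (Gm17226). Genes on the same strand overlap the spans of Foxp1 (Gm49348, Gm20696, Gm20705 and Gm22328) and Onecut1 (Gm20649). None of these has an entry of its own among the deposited genes. The strand setting of the counting is not given in the sources used here, so reads of the antisense pairs cannot be told apart.

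The cultures were neuronal, with weak signs of mature motor neurons. Tubb3, a tubulin of neurons, ranged from 992 to 1594 CPM, the count scaled to a common total in genes per library, over the 12 libraries. Chat, the enzyme that makes acetylcholine and the defining product of motor neurons, had 0.101 to 0.394 CPM. Slc18a3, which loads acetylcholine into vesicles, had 0.551 to 2.42 CPM, and Slc5a7, which takes up choline, had 0.317 to 1.46 CPM. Per kilobase of exon Chat averaged 0.0553 CPM, Slc18a3 0.474 and Slc5a7 0.138. Factors of other spinal neurons ranged widely on that scale, with the dorsal factor Tlx3 at 32.6, the V2b factor Gata3 at 8.45, the V1 factor En1 at 2.20 and the V0 factor Evx1 at 0.521. The V3 factor Sim1 at 0.0869 and Foxn4 at 0.0718, which acts in V2 progenitors, were close to Chat. The libraries held 36061511 to 45024091 counts in genes, and 17870 to 19112 genes were detected in each.

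Foxp1 was the most abundant member per length and Isl2 the least. Levels between genes are compared as CPM per kilobase of exon, averaged over the 12 libraries with the SD. Foxp1 stood at 4.69 ± 0.519, followed by Lhx3 at 2.45 ± 0.662, Isl1 at 1.70 ± 0.454, Onecut2 at 1.44 ± 0.366 and Lhx4 at 1.32 ± 0.267. Every library of Foxp1 lay above every library of Lhx3. The ranges of Lhx3 and Isl1 overlapped, but Lhx3 was above Isl1 in 12 of 12 libraries. Onecut2 and Lhx4 could not be ordered, since Onecut2 was above Lhx4 in only 6 of 12 libraries, and Isl1 was above Onecut2 in 10 of 12.

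The other 4 members were lower. Etv1 averaged 0.401 ± 0.104 CPM per kilobase, and its range lay wholly below that of Lhx4 and wholly above that of Onecut1. Onecut1 at 0.169 ± 0.0441, Mnx1 at 0.144 ± 0.0752 and Isl2 at 0.0813 ± 0.0578 overlapped one another, with Onecut1 above Mnx1 in 7 and Mnx1 above Isl2 in 10 of 12 libraries. On this scale Isl1 and Lhx3 were above Chat and below Gata3. Ldb1, the adaptor that Isl1 and Lhx3 bind, stood at 44.0, and Olig2, the progenitor factor, at 5.97. By CPM, Foxp1 was above 74.5% of the genes tested, Onecut2 above 53.4%, Lhx4 above 35.0%, Lhx3 above 34.7%, Isl1 above 33.4%, Etv1 above 30.8%, Onecut1 above 12.2% and Mnx1 above 5.48%.

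**Figure D1:**
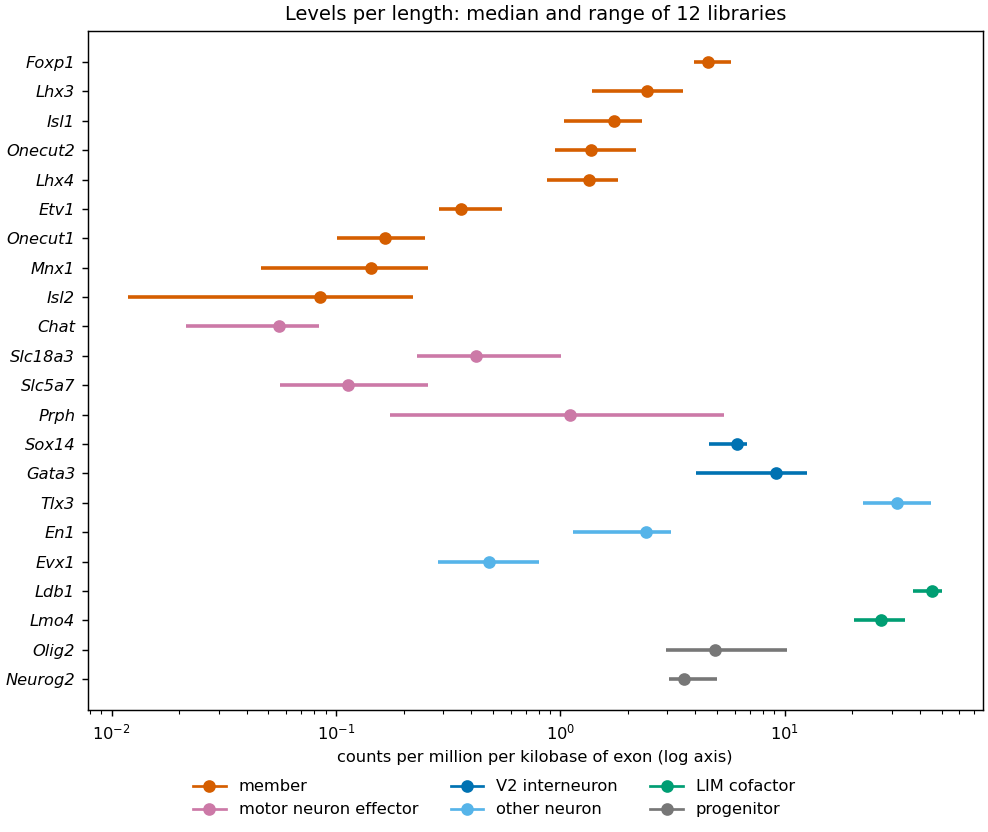
Levels per length of the 9 transcription factors in the 12 libraries, in CPM per kilobase of exon on a log axis, with the median as a point and the range as a line, above other spinal cord genes grouped by role. Among the 9, Foxp1 stands apart at 3.93 to 5.76, and Onecut1, Mnx1 and Isl2 overlap at the low end.

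Whether laminin, myelin or both moved these genes was tested against PDL with edgeR's quasi-likelihood test on raw counts, with p-values adjusted by Benjamini and Hochberg's method over all 15737 genes that passed the filter on low counts. Isl2 did not pass that filter, so 8 members were tested. With the coat alone in the model, 0 of 8 members passed an adjusted p of 0.05 in laminin plus myelin against PDL, where 1.25% of genes did, 0 of 8 in myelin against PDL, where 2.29% did, and 0 of 8 in laminin against PDL, where 0% did. At an unadjusted p under 0.05 the same test gave 1 member in each of the 3 comparisons, beside 16.8, 17.5 and 17.4% of all genes, so the share of members was near or below that of all genes. DESeq2 called 1 in each, beside 6.36, 7.05 and 4.14%. That member was Onecut2 each time. Libraries with the same number deviated together in every coat, and with the number added to the model as a block Onecut2 fell on all 3 coats and Lhx3 fell on laminin plus myelin. So 2 of 8 members fell in laminin plus myelin, against 9.26% of all genes, 1 of 8 in myelin, against 10%, and 1 of 8 in laminin, against 5.48%. No member rose, where 4.3%, 4.37% and 2.66% of all genes did in those comparisons in that order.

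Onecut2, a cut-homeodomain factor related to Onecut1, was the member with the smallest p-values against PDL and the largest share of its variation between coats. It had 21.8, 22.7 and 19.0 CPM on laminin plus myelin for numbers 1 to 3, then 21.4, 22.5 and 19.4 CPM on myelin, and 15.4, 24.8 and 18.4 CPM on laminin, against 33.6, 35.2 and 26.7 CPM on PDL. All 9 libraries with an added coat were below all 3 PDL libraries. The lowest of them was laminin replicate 1, and the PDL library of number 3 was the lowest of its coat. With the number as a block, Onecut2 had a log2 fold change of -0.58 ± 0.12 (SE, adjusted p = 0.0105) on laminin plus myelin, -0.59 ± 0.12 (adjusted p = 0.00884) on myelin and -0.71 ± 0.12 (adjusted p = 0.0171) on laminin, each against PDL. These are 0.667, 0.665 and 0.610 of the PDL level.

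Without the block the Onecut2 log2 fold changes were -0.59, -0.59 and -0.71 and their adjusted p-values 0.101, 0.0881 and 0.126 in that order. DESeq2 without the block gave adjusted p = 0.0213, 0.0188 and 0.00542. In the authors' deposited table the log2 fold changes of Onecut2 are -0.58, -0.59 and -0.70 with adjusted p of 0.0946, 0.0770 and 0.0590. Between coats of the same number the log2 ratio to PDL was -0.62, -0.63 and -0.49 on laminin plus myelin, -0.65, -0.65 and -0.47 on myelin, and -1.13, -0.50 and -0.54 on laminin. The 9 ratios all lay below 0, with laminin replicate 1 farthest from it. The blocked calls were lost without PDL replicate 1 or PDL replicate 2 in all 3 comparisons, with adjusted p up to 0.115. They were also lost without laminin plus myelin replicate 2 or 3 in the first, where adjusted p was up to 0.0693, and without myelin replicate 2 in the second, at 0.0910.

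The share of reads that fell outside genes moved with the same split of the libraries. It was 11, 11.9 and 11.7% on laminin plus myelin, 10.8, 10.8 and 12.4% on myelin, and 8.46, 13.2 and 13.7% on laminin, against 17.4, 19.4 and 17.5% on PDL. Laminin replicate 1, with the lowest share, was also the lowest library for Onecut2. With this share as a covariate beside the block, no member passed in any comparison, and of all 15737 genes 0 passed in each comparison with PDL. Onecut2 then stood at a log2 fold change of 0.12 on laminin plus myelin, 0.14 on myelin and -0.05 ± 0.19 on laminin. The share and the PDL coat overlap nearly completely in these libraries, so their parts in the lower Onecut2 counts cannot be told apart.

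**Figure D2:**
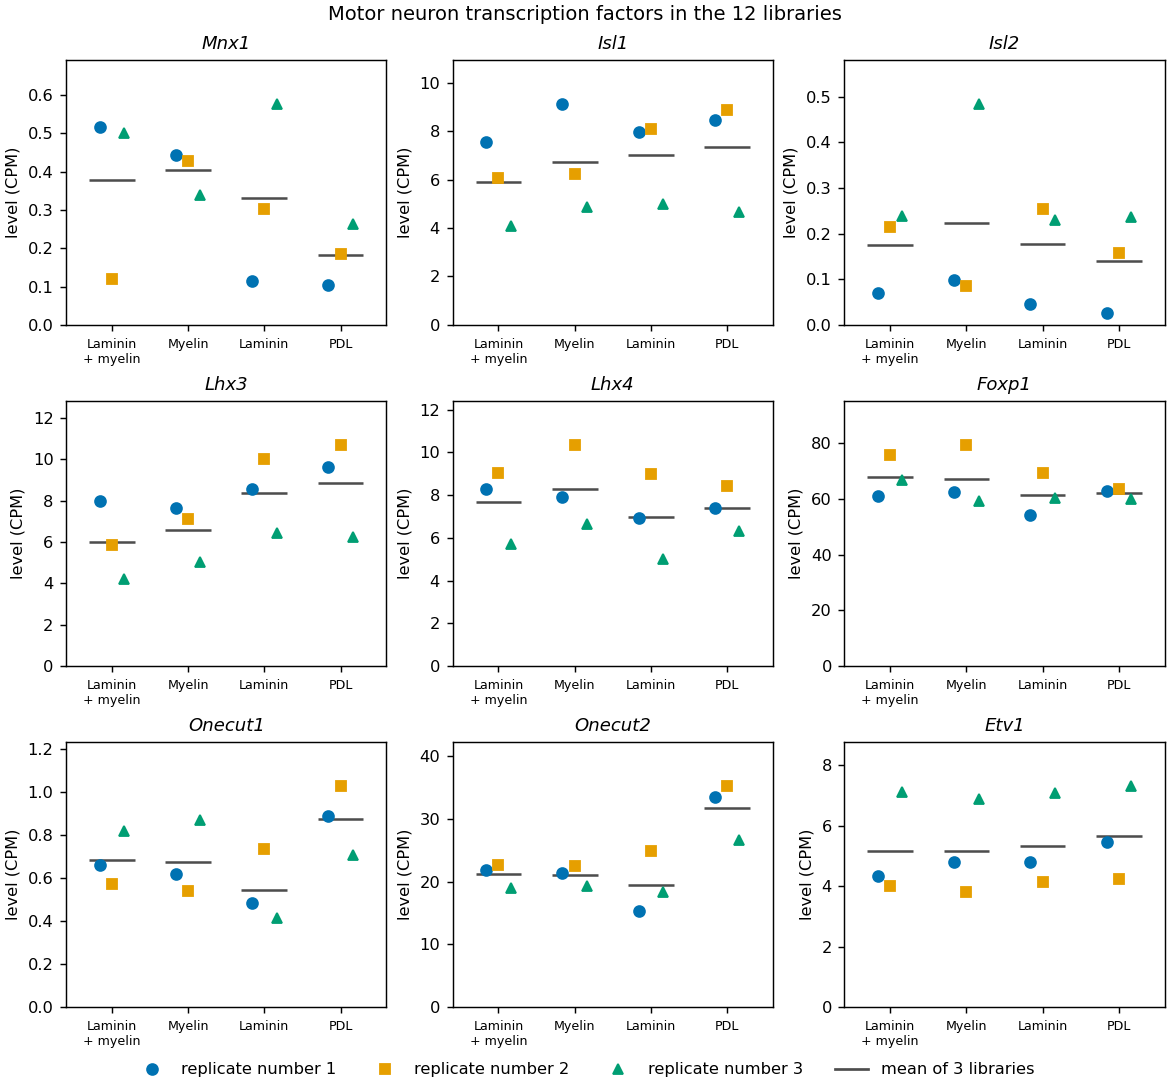
Level of each transcription factor in CPM (vertical axis, from 0) on laminin plus myelin, myelin, laminin and PDL, with 1 point per library, its replicate number marked, and the mean of 3 as a bar. For Onecut2 the 9 libraries with an added coat lie between 15.4 and 24.8 CPM, below the PDL libraries at 26.7 to 35.2 CPM.

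Lhx3, the partner of Isl1 in the motor neuron complex, was lowest where myelin was present. It had 7.97, 5.86 and 4.22 CPM on laminin plus myelin, 7.63, 7.12 and 5.03 CPM on myelin, and 8.58, 10.0 and 6.45 CPM on laminin, against 9.62, 10.7 and 6.22 CPM on PDL. Within each number both coats with myelin were below PDL, while the laminin library was close to PDL, at log2 ratios of -0.17, -0.09 and 0.05. With the block, Lhx3 fell on laminin plus myelin, with a log2 fold change of -0.56 ± 0.13 (SE, adjusted p = 0.0190). On myelin the value was -0.41 ± 0.13 (adjusted p = 0.0516) and on laminin -0.07 ± 0.13 (adjusted p = 0.732). Without the block the 3 adjusted p-values were 0.344, 0.474 and 0.927.

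Averaged over wells with and without laminin, Lhx3 fell with myelin in the blocked fit, with a log2 change of -0.45 ± 0.09 (adjusted p = 0.0167), and it was 1 of 8 members called there, against 5.6% of all genes lower and 3.03% higher. The coat-only fit gave -0.45 ± 0.20 (adjusted p = 0.346), with 0 of 8 members and 0.0254% of all genes called. The blocked call on laminin plus myelin was lost without laminin plus myelin replicate 2 or 3 or PDL replicate 1 or 2, with adjusted p up to 0.119. The averaged call was lost in 6 of 12 such fits, without laminin plus myelin replicate 2 or 3, myelin replicate 2, laminin replicate 2 or 3, or PDL replicate 2, with adjusted p up to 0.0799. Lhx3 on laminin plus myelin against laminin alone stood at -0.49 ± 0.13 with the block (adjusted p = 0.400).

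Isl1, the LIM factor that with Lhx3 specifies motor neurons, did not pass on any coat. It had 7.54, 6.07 and 4.09 CPM on laminin plus myelin, 9.11, 6.23 and 4.88 CPM on myelin, and 7.98, 8.10 and 5.00 CPM on laminin, against 8.44, 8.86 and 4.67 CPM on PDL. In each coat number 3 was the lowest, and the coats overlapped. Its log2 fold change on laminin plus myelin against PDL was -0.31 ± 0.13 with the block (adjusted p = 0.132), with within-number ratios of -0.16, -0.54 and -0.19.

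Isl2, a close relative of Isl1 in the same neurons, was near the limit of detection. Its counts were 3, 9 and 9 on laminin plus myelin, 4, 3 and 20 on myelin, and 2, 10 and 10 on laminin, against 1, 6 and 9 on PDL. Over a coat that is 21, 27 and 22 counts, against 16 on PDL. No difference was detectable at this depth, and the largest count came from 1 library, myelin replicate 3.

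Lhx4, the relative of Lhx3, had 8.27, 9.02 and 5.73 CPM on laminin plus myelin, 7.92, 10.3 and 6.64 CPM on myelin, and 6.94, 8.98 and 5.02 CPM on laminin, against 7.40, 8.44 and 6.33 CPM on PDL. Number 2 was highest and number 3 lowest in every coat. The largest coat value was on myelin, a log2 fold change of 0.17 ± 0.25 against PDL without the block (adjusted p = 0.785).

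Mnx1 (HB9), a homeodomain factor that holds motor neurons to their fate by repressing V2a genes, rested on few reads. Its counts were 22, 5 and 19 on laminin plus myelin, 18, 15 and 14 on myelin, and 5, 12 and 25 on laminin, against 4, 7 and 10 on PDL. In CPM the lowest myelin library was above the highest PDL library, whereas the other coats overlapped PDL. Summed over the coat, Mnx1 had 0.373 CPM (exact Poisson 95% interval 0.273 to 0.498) on laminin plus myelin, 0.399 (0.293 to 0.531) on myelin and 0.331 (0.239 to 0.448) on laminin, against 0.186 (0.115 to 0.285) on PDL. These intervals cover counting error only. The log2 fold change on myelin against PDL was 1.12 ± 0.66 (adjusted p = 0.419), and 1.15 ± 0.59 with the block (adjusted p = 0.200).

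Onecut1 (HNF6), which in mice acts upstream of Isl1 in motor neurons, had 0.658, 0.571 and 0.818 CPM on laminin plus myelin, 0.617, 0.541 and 0.870 CPM on myelin, and 0.485, 0.734 and 0.415 CPM on laminin, against 0.886, 1.02 and 0.709 CPM on PDL. The laminin and PDL libraries overlapped at 1 pair, laminin replicate 2 and PDL replicate 3. Summed counts were 83, 80 and 68 on the 3 coats, against 100 on PDL. The log2 fold change was -0.36 ± 0.32 on laminin plus myelin, -0.36 ± 0.32 on myelin and -0.68 ± 0.32 on laminin, and the last had an adjusted p of 0.306.

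Foxp1, the Hox cofactor of limb-level motor columns, had 61.1, 75.6 and 66.8 CPM on laminin plus myelin, 62.4, 79.2 and 59.1 CPM on myelin, and 54.0, 69.2 and 60.4 CPM on laminin, against 62.6, 63.4 and 60.1 CPM on PDL. PDL had the narrowest spread, with an SD of 1.73 CPM, and every other coat overlapped it. The log2 fold change was 0.13 ± 0.13 on laminin plus myelin (adjusted p = 0.654), 0.11 ± 0.13 on myelin and -0.02 ± 0.13 on laminin. Etv1, the ETS factor of motor pools, had 4.35, 4.00 and 7.13 CPM on laminin plus myelin, 4.79, 3.81 and 6.89 CPM on myelin, and 4.81, 4.12 and 7.07 CPM on laminin, against 5.47, 4.23 and 7.3 CPM on PDL. The coats overlapped almost fully, with log2 fold changes of -0.14, -0.13 and -0.09, each ± 0.31. Within each number, however, the 9 ratios to PDL all lay below 0, from -0.33 to -0.03 on the log2 scale. With the block the values were -0.15 ± 0.11 (adjusted p = 0.363), -0.14 ± 0.11 (adjusted p = 0.384) and -0.09 ± 0.11 (adjusted p = 0.583).

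**Figure D3:**
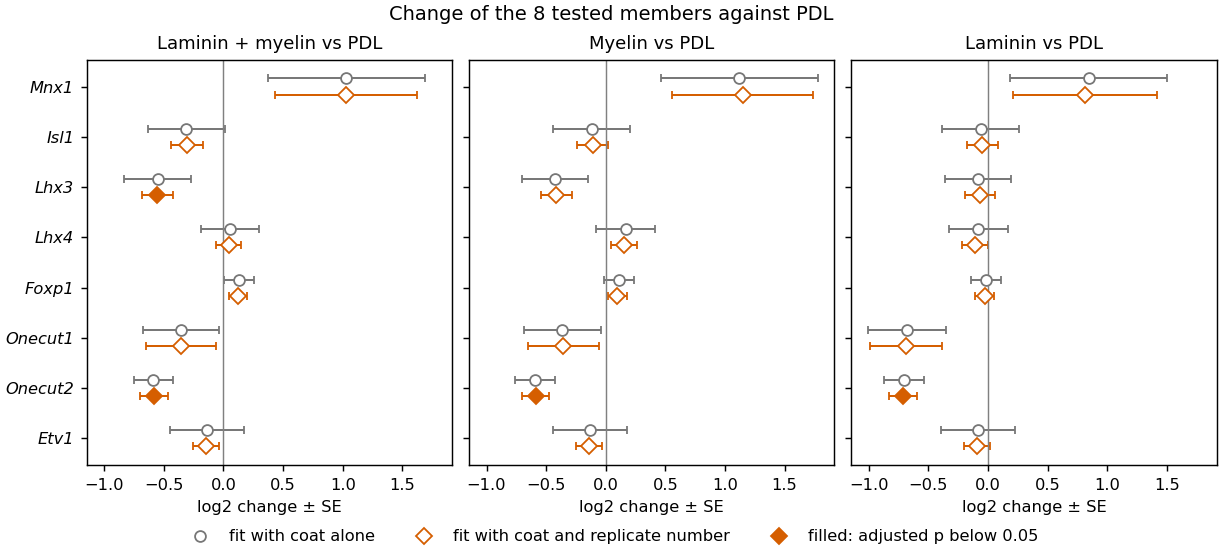
Log2 fold change of the 8 tested members on laminin plus myelin, myelin and laminin, each against PDL, from the fits with and without replicate number as a term, with bars of 1 SE and filled marks where the adjusted p passed. In the fit with the number, Onecut2 lies below 0 on all 3 coats, at -0.58, -0.59 and -0.71, and Lhx3 lies lower on the coats with myelin than on laminin.

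The median log2 fold change of the 8 members without the block was -0.22 on laminin plus myelin, -0.13 on myelin and -0.08 on laminin, beside medians of 0.0244, 0.0167 and 0.0147 over all genes. The 3 comparisons share the PDL libraries, so their values are not separate support for each other. The direct comparisons among the coats called no member. Laminin plus myelin against myelin gave 0 of 8, with 0% of genes called with or without the block. Laminin plus myelin against laminin gave 0 of 8, with 0.0191% of genes called, or 0.102% with the block. Myelin against laminin gave 0 of 8, with 0.0254%, or 0.114% with the block. The blocked test had 0, 1 and 2 members at an unadjusted p under 0.05 in these comparisons in that order, beside 0.985, 6.96 and 8.17% of all genes, and 0 in each without the block, and DESeq2 called none with or without the block.

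The effect of laminin averaged over wells with and without myelin called 0 of 8 members, and so did the interaction of myelin with laminin, with 0% of genes called in both, with or without the block. In each case edgeR had 1 member at an unadjusted p under 0.05, with or without the block, beside 5.62 and 6.62% of all genes without it and 16.2 and 16.5% with it, and DESeq2 called none, or 1 with the block. That member was Onecut2, whose interaction was 0.72 ± 0.16 on the log2 scale with the block (adjusted p = 0.167, or 0.0149 by DESeq2 with the block). A positive value means that the combined coat was higher than the sum of the single changes. A test for any difference among the 4 coats called 0 of 8 members, with 0.0953% of genes called, with 1 member (11.4% of genes) under an unadjusted p of 0.05 and 1 (5.98% of genes) called by DESeq2. With the block it called 2 of 8, Onecut2 (adjusted p = 0.0105) and Lhx3 (adjusted p = 0.0385), against 8.69% of all genes.

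For 5 of the 8 members the replicate number took more of the variation than the coat did, and no such count over all genes is given here. With the coat as a term, 6 of 8 members differed among the 3 numbers, against 39.9% of all genes. Among the coats, with the block, 2 of 8 differed, against 8.69% of all genes. The labels call the samples biological replicates and do not say what the libraries of a number share, such as a litter or a day, so the p-values here measure only the spread between these libraries. Of the variation of the log2 level over the 12 libraries, the number took 95.1% for Etv1, 82.8% for Isl1, 82.1% for Lhx4, 58.0% for Foxp1 and 55.7% for Lhx3. The coat took 2.93, 8.81, 10.9, 18.3 and 35.9% for those genes in that order. Onecut2 was the other way round, with 16.8% for the number and 70.3% for the coat. Mnx1 and Onecut1 left the largest remainders, 54.5% and 52.9%.

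**Figure D4:**
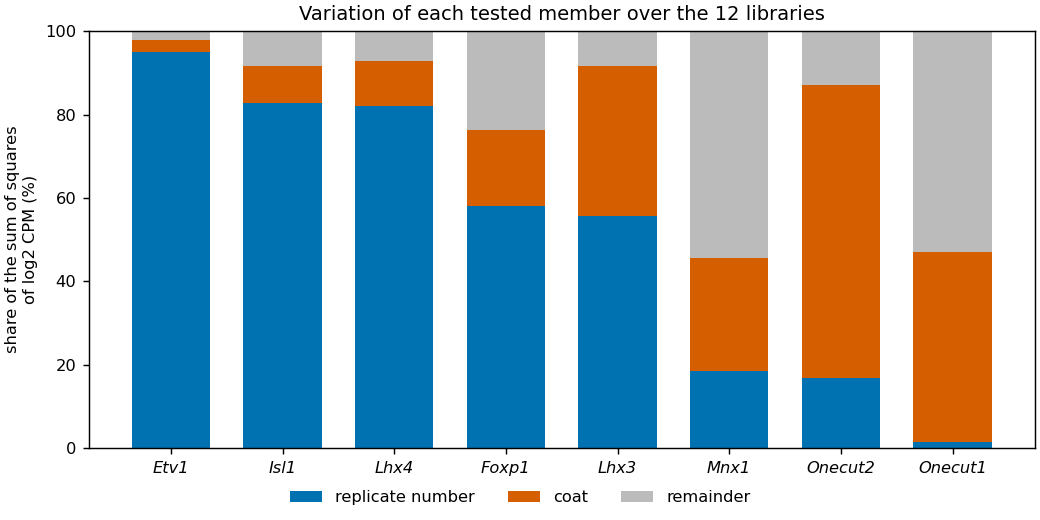
Share of the sum of squares of log2 CPM over the 12 libraries that goes with replicate number, with coat and with neither, in percent, for the 8 tested members. Number takes the largest share for Etv1 (95.1%), Isl1 and Lhx4, and coat takes it for Onecut2 (70.3%).

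Isl1, Lhx3 and Lhx4 were lowest and Etv1 highest in number 3, in 4 of 4 coats each. Isl1 averaged 4.66 ± 0.402 CPM in number 3, against 8.27 ± 0.670 CPM in number 1 (SD, n = 4 each), a log2 difference of -0.83 ± 0.11 (SE, adjusted p = 0.000107). Lhx3 averaged 5.48 ± 1.04 CPM in number 3 and 8.45 ± 0.873 CPM in number 1, a log2 difference of -0.64 ± 0.11 (adjusted p = 0.000682). Lhx4 averaged 5.93 ± 0.715 CPM in number 3 and 7.63 ± 0.587 CPM in number 1, a difference of -0.37 ± 0.09 (adjusted p = 0.00761). In none of these genes did a library of number 3 reach a library of number 1. How many of all genes lack such overlap, or keep the same order of numbers in every coat, is not given here. Etv1 went the opposite way, with 7.10 ± 0.170 CPM in number 3 and 4.85 ± 0.464 CPM in number 1, a difference of 0.55 ± 0.09 (adjusted p = 0.000437). That made 4 of 8 members in number 3 against number 1, where 43.9% of all genes were called, so the share of members was close to that of all genes.

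Number 3 against number 2 called 6 of 8 members, against 15.6% of all genes. Etv1 was higher by 0.81 ± 0.09 (adjusted p = 0.000152), and Lhx4 (-0.64 ± 0.09, adjusted p = 0.000928), Isl1 (-0.64 ± 0.11, adjusted p = 0.00294) and Lhx3 (-0.60 ± 0.11, adjusted p = 0.004) were lower. Onecut2 (-0.33 ± 0.10, adjusted p = 0.0442) and Foxp1 (-0.22 ± 0.07, adjusted p = 0.0482) passed narrowly. Number 2 against number 1 called 1 of 8, Foxp1 at 0.26 ± 0.07 (adjusted p = 0.0212), against 18.8% of all genes. Foxp1, Lhx4 and Onecut2 were highest in number 2 in 4 of 4 coats. Without any 1 of the 12 libraries, Isl1, Lhx3, Lhx4 and Etv1 kept their calls in number 3 against 1 and against 2. Foxp1 in number 2 against 1 kept its call in 7 of 12 such fits, and in number 3 against 2 in 3 of 12. Onecut2 in number 3 against 2 kept it in 2 of 12. Isl2 averaged 0.297 ± 0.124 CPM in number 3 and 0.0604 ± 0.0314 CPM in number 1 (SD, n = 4 each). It was below the filter on low counts with all 12 libraries and rested on 1 to 20 counts per library, so no test of it between numbers is given. Mnx1 (adjusted p = 0.417) and Onecut1 (adjusted p = 0.915) did not pass a test for any difference among the numbers.

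Markers of other cells also moved with the numbers. The summed level of 10 neural progenitor markers, Sox2 among them, was 810 to 1094 CPM in number 3, against 508 to 603 CPM in number 1. The 8 pan-neuronal markers summed to 8349 ± 69.5 CPM in number 3 and 10279 ± 293 CPM in number 1 (SD, n = 4 each). The 8 microglial markers summed to 67.9 ± 23.6 CPM in number 3 and 18.1 ± 3.74 CPM in number 1. Hoxd10, a Hox gene of caudal cord levels named after its values were seen, stood at 49.6 ± 3.94 CPM in number 3 and 1.87 ± 0.373 CPM in number 1. Gata3 averaged 18.0 CPM in number 3 and 36.1 CPM in number 1, and Olig2 22.6 and 12.4 CPM. The part of these shifts in the values of the members was not tested.

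Among the other genes of the motor neuron pathway, the lists of which were chosen with earlier results of these data known, the list of products of mature motor neurons had the most calls with myelin among the pathway lists. Averaged over wells with and without laminin and with the block, 6 of the 12 effector genes tested rose and none fell, against 3.03% and 5.6% of all genes. Prph, the intermediate filament peripherin, rose by 2.83 ± 0.11 on the log2 scale (adjusted p = 4.23e-08), Slc18a3 by 1.06 ± 0.17 (adjusted p = 0.00869) and Slc5a7 by 1.00 ± 0.22 (adjusted p = 0.0215). Nefm (0.30 ± 0.04), Chodl (0.41 ± 0.10) and Nefl (0.18 ± 0.04) rose less. Rises in this fit were not confined to the effector list. The pan-neuronal gene Elavl4 (0.18 ± 0.05, adjusted p = 0.0491) and the progenitor gene Sox2 (0.30 ± 0.06, adjusted p = 0.0187) also passed. Tubb3 (0.05 ± 0.05, adjusted p = 0.582) and the progenitor marker Mki67 (0.06 ± 0.09, adjusted p = 0.733) did not. Prph averaged 7.31 ± 3.71 CPM on laminin plus myelin, 6.50 ± 3.43 CPM on myelin and 0.917 ± 0.501 CPM on laminin, against 1.06 ± 0.685 CPM on PDL. Slc18a3 averaged 1.73 ± 0.598, 1.38 ± 0.271 and 0.795 ± 0.0965 CPM, against 0.672 ± 0.208 CPM on PDL. Over the replicate numbers the 6 effector genes did not move together. In number 3 against number 1 Prph was higher (1.81 ± 0.14), and Slc5a7 (-1.03 ± 0.28), Nefl (-0.82 ± 0.05) and Nefm (-0.47 ± 0.05) were lower. Slc18a3 (-0.52 ± 0.21) and Chodl (0.19 ± 0.12) did not pass there.

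The summed level of the list did not follow these genes: it was 897 ± 74.4 CPM on laminin plus myelin, 868 ± 90.5 CPM on myelin and 864 ± 41.0 CPM on laminin, against 970 ± 128 CPM on PDL (SD, n = 3 each). Agrn, which organizes the neuromuscular junction, is the most abundant member of that sum, at 350 ± 44.7, 343 ± 48.1 and 369 ± 63.0 CPM, against 486 ± 99.0 CPM on PDL.

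Chat did not pass, with 0.45 ± 0.28 (adjusted p = 0.340) for myelin averaged over laminin. Without the block none of the 12 passed, and Prph had an adjusted p of 0.0785 and Slc18a3 of 0.0890. Prph, Slc18a3 and Nefm kept their blocked calls without any 1 of the 12 libraries, whereas Slc5a7 kept it in 5, Chodl in 4 and Nefl in 3 of the 12 fits. Against PDL and with the block, 5 of 12 rose on laminin plus myelin, 6 rose and Agrn fell (-0.50 ± 0.15) on myelin, and Nefl alone rose on laminin (0.28). Of all genes, 4.3, 4.37 and 2.66% rose and 9.26, 10 and 5.48% fell in those comparisons in that order. The same shares stand beside the counts of marker genes that follow. Markers of the myelin preparation and of microglia were higher in the same wells. The 8 genes of mature myelin summed to 378 ± 100 CPM on laminin plus myelin, 538 ± 281 CPM on myelin and 67.1 ± 14.7 CPM on laminin, against 65.7 ± 8.74 CPM on PDL. With the block 3 of the 8 rose and 1 fell on laminin plus myelin, and 4 rose and 1 fell on myelin. The 8 microglial genes, of which 6 rose on laminin plus myelin, 7 on myelin and 4 on laminin, summed to 51.2 ± 33.1, 55.8 ± 34.0 and 37.5 ± 19.4 CPM, against 26.2 ± 13.2 CPM on PDL. In the same order of coats, the 10 neural progenitor markers summed to 765 ± 300, 758 ± 260 and 647 ± 146 CPM, against 661 ± 163 CPM on PDL. The libraries of these coats overlapped. Of these markers, Sox2 kept its blocked call with myelin averaged over laminin in 7 of 12 fits that left out 1 library. The part of the myelin, microglial and progenitor markers in the rise of the effector genes and in the lower Lhx3 was not tested.

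The lists of genes upstream of the members or beside them had smaller shares called with myelin averaged over laminin than the effector list. In that blocked fit 3.03% of all genes rose and 5.6% fell. Of 13 progenitor patterning genes, 3 rose with myelin averaged over laminin and with the block, namely Nkx6-2 (0.60 ± 0.15, adjusted p = 0.0333), Shh (0.25 ± 0.06, adjusted p = 0.0361) and Dbx2 (0.95 ± 0.25, adjusted p = 0.0379), and none fell. Olig2 and Neurog2, the factors that define motor neuron progenitors, were not among them. Of 25 genes of motor columns and pools only Runx1 rose (0.48 ± 0.14, adjusted p = 0.0483), and it is also expressed by microglia. Of 21 axon guidance receptors of motor neurons only Alcam rose (0.20, adjusted p = 0.0412). These calls were narrow: leaving out 1 library at a time, Nkx6-2, Shh and Alcam kept theirs in 3 of 12 fits, Runx1 in 2 and Dbx2 in 1. Of 10 LIM cofactors, Ldb2 and Lmo4 rose on laminin against PDL with the block (0.39 and 0.35), where 2.66% of all genes rose. Ldb2, Lmo1 and Lmo4 rose on laminin plus myelin (0.35, 0.43 and 0.25), beside 4.3%, and Ldb2 on myelin (0.40), beside 4.37%. How far these calls depend on single libraries is not given here.

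The neighbouring interneuron classes that share Lhx3 and Lhx4 were set beside the members. Of 9 V2 genes, 2 rose with myelin averaged over laminin and with the block, where 3.03% of all genes rose. They were Sox21 (0.29 ± 0.06, adjusted p = 0.0166) and Bhlhe22 (0.17, adjusted p = 0.0441). In the same fit Lhx3 fell, and Lhx4 and the V2b factor Gata3 (-0.01 ± 0.06, adjusted p = 0.941) did not pass. None of 9 V0, V1 and V3 genes and none of 12 dorsal genes passed. Leaving out 1 library at a time, Sox21 kept its call in 10 of 12 fits and Bhlhe22 in 2. Without the block none of these genes passed. In number 3 against number 1 Sox21 was higher (0.66 ± 0.07), as was the progenitor gene Sox2 (0.84 ± 0.08), and Gata3 was lower (-1.01 ± 0.08).

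Over the 12 libraries the members formed several pairs with similar or opposite patterns. These are Pearson correlations of log2 CPM, given as a description, and the libraries share coats, numbers and a normalization. Isl1 and Lhx3 had r = 0.892, which was 0.682 once coat and number were taken off. Lhx4 and Etv1 had r = -0.920, Isl1 and Etv1 -0.719, Lhx4 and Foxp1 0.617, and Onecut1 and Onecut2 0.663, among 28 pairs. Once coat and number were taken off, these were -0.466, 0.0295, 0.0236 and 0.422 in that order, so that of the 4 pairs Isl1 with Etv1 and Lhx4 with Foxp1 were near 0. Both negative values involve Etv1, which was highest where Isl1, Lhx3 and Lhx4 were lowest.

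Genes with the most similar pattern were found in the same way over all genes tested. For Lhx3 they were Fev (r = 0.967), Rnf112 (0.940) and Slc5a6 (0.934), and for Isl1 Trappc12 (0.948) led. Lhx4 was led by Ptchd1 (0.944), Foxp1 by Dach1 (0.964), Etv1 by Tril (0.971) and Onecut2 by Ralgapa1 (0.982). Onecut2 shared its pattern most widely, with 169 genes above 0.9, against 64 for Isl1, 30 for Etv1, 15 for Lhx4, 12 for Lhx3 and 2 for Foxp1, and none for Mnx1 or Onecut1. Among the genes of the lists above, Etv1 ran with Olig2 (0.920) and opposite to Gata3 (-0.970), and both were near 0 once coat and number were taken off (-0.0291 and -0.0975). Lhx4 ran with Gata3 (0.858), but not after coat and number were taken off (-0.283). Isl1 and Lhx3 ran opposite to Shh (-0.963 and -0.932), and still did after coat and number (-0.826 and -0.816).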

How the data were processed

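Reads were obtained by paired-end sequencing of TruSeq libraries from 12 cultures, per the labels' protocols. CASAVA 1.8.2, edgeR and the build mm10 (GRCm38) are named in the submitters' processing notes, and no source used here names the aligner, the counter or the strand setting. The authors deposited raw counts per gene, which were tested here. Of the same table, the authors' normalized values (a signal scaled by library) were not used, and the authors' deposited log2 fold changes and p-values were read for the members only. Entries that name no gene (reads outside genes, 8.46 to 19.4%, not unique, 11.5 to 13.6%, and ambiguous, 0.579 to 0.717%, of each library) entered neither the library sizes nor any test.

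Counts were fitted with edgeR 4.0.16 in R 4.3.3 (quasi-likelihood test with robust dispersions, TMM factors, genes kept by a count of about 10 in 3 libraries, Benjamini-Hochberg adjustment, threshold 0.05), with coat alone as the main model and all 12 libraries sharing 1 spread. Correlations used log2 CPM with a prior count of 2. DESeq2 1.42.0, other size factors, no filter, leaving out each library and a replicate block were alternatives. Same-numbered libraries deviated together: their deviations from the coat means correlated at 0.218 to 0.830 in 18 of 18 pairs, against -0.770 to 0.243 in 36 pairs of different numbers, and 12 of 12 libraries correlated best with their own number. This pairing rests on the data and on the numbers that the labels repeat in each coat. The block brought edgeR's biological coefficient of variation to 0.0901, from 0.205 without it. The coat-only test was checked on simulated counts. Those had a smaller spread than these libraries have without the block and no shared number, so the check does not cover either feature.

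The members and gene lists were chosen with earlier results of these data known. Of each list, genes marked as defining and up to 4 further called genes were named, and for likeness the 3 most correlated genes of a member. 1 gene of the interneuron lists is not reported here. With 3 libraries a coat and 36061511 to 45024091 counts in genes per library, genes with a few counts per library, such as Isl2 and Mnx1, have wide errors.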

Additional observations from a re-analysis of the deposited data

How the results depend on the processing

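With the coat alone in the model no member passed in any comparison of coats. DESeq2 size factors within edgeR and no filter on low counts also called none. With the replicate block 1 member passed on myelin, 1 on laminin, 2 on laminin plus myelin, each against PDL, 1 for myelin averaged over laminin and 2 for any coat difference. DESeq2 called 1, 1, 1, 0 and 1 of these, beside 7.05, 4.14, 6.36, 4.00 and 5.98% of all genes. DESeq2 with the block called 2, 1, 2, 1 and 2, beside 17.6, 15.8, 16.7, 12.7 and 17.0%. It also called 1 for laminin averaged over myelin and 1 for the interaction, beside 0.785 and 1.74%. The last setting and the fit with the share of reads outside genes were chosen after seeing the data. Leaving out each library in turn, with or without the block, gave 0 to 2 members on myelin, 0 to 1 on laminin, 0 to 2 on laminin plus myelin, 0 to 1 for laminin plus myelin against laminin, 0 to 2 for myelin averaged over laminin, 0 to 1 for the interaction, 0 to 2 for any coat difference and 0 to 1 for number 2 against 1. Without laminin replicate 1 and without the block, 1 member passed on myelin and 1 on laminin plus myelin. With the block and the share of reads outside genes, 6 log2 values changed sign: Lhx3 on myelin (0.14), Onecut1 on myelin (0.36) and laminin plus myelin (0.34), and Onecut2 on myelin (0.14), laminin plus myelin (0.12) and for myelin averaged over laminin (0.15). The cause was not tested. Over all genes, the block gave 2268 calls on myelin (360 without it), 1282 on laminin (0), 2133 on laminin plus myelin (196), 1358 for myelin averaged over laminin (4) and 1367 for any coat (15). Of single-gene values under the alternatives, 2089 kept direction and side of the threshold, 65 newly passed it and 6 changed sign. They were judged against the coat-only fit, which called no member, so no call could be lost. The losses of blocked and replicate-number calls given above are not in these counts. A value within 1 SE of 0 was given no direction. Depth limits Isl2, Mnx1 and Onecut1, which rest on 1 to 39 counts per library.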
